A study of Mus musculus with 53 samples.

Results

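Otx2, Fgf5 and Pou3f1 are markers of the formative epiblast, and CUT&RUN peaks around these 3 genes were compared among 5 mouse cell populations. The genes were chosen by name, 3 of the 21938 protein-coding genes placed on the autosomes, X and Y by the GENCODE annotation of mm10 used here. Around each gene the annotated body plus 80 kb on each side was examined. Otx2 (ENSMUSG00000021848) lies on the minus strand at chr14:48657677-48673819, Fgf5 (ENSMUSG00000029337) on the plus strand at chr5:98254184-98277030, and Pou3f1 (ENSMUSG00000090125) on the plus strand at chr4:124656807-124660655. These windows span 176143, 182847 and 163849 bases.

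All cells came from SGGC, an E14JU-derived embryonic stem cell (ESC) line in which endogenous SOX2 is fused to GFP and endogenous GATA6 to mCherry, and the cassettes that select the 2 fusions are carried by every group. The line is represented by clones B9 and B12. Naive ESCs were kept either in 2iLIF (the MEK inhibitor PD0325901, the GSK3 inhibitor CHIR99021 and LIF) or in NACL (Activin A, CHIR99021 and LIF). KOSR cultures of clone B12 were sorted by flow cytometry into SOX2+ cells (GFP alone) and double-positive (DP) cells with both reporters. The titles of these libraries begin with A, A1 or B, letters the labels do not explain. Naive extra-embryonic endoderm (nEnd) is an in vitro counterpart of the primitive endoderm, and both of its H3K4me1 libraries are of clone B9. SOX2 was profiled in 2 libraries of 2iLIF, 2 of NACL, 3 of SOX2+ and 3 of DP, and GATA6 in 3 of DP and 2 of nEnd. H3K27ac and H3K4me1 were each profiled in 2 libraries of 2iLIF, NACL, SOX2+ and nEnd, and in 1 of DP, so DP has no replicate for the marks. A further pair of histone libraries, named B_DP, has labels that call them DP in one field and SOX2+ in another, and their values are kept apart. The NACL B12 SOX2 library names both IgG and SOX2 in its source field and was placed by its title, and the DP A library for GATA6 has a suffix in its label that is not explained.

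Pluripotent cells leave the naive state through a formative state before they can take up somatic or germline fates. OTX2 is a homeodomain transcription factor of this step, POU3F1 (also called OCT6) is a POU-domain factor that works with it, and FGF5 is a secreted growth factor whose transcript marks the early post-implantation epiblast. SOX2 binds enhancers of pluripotent cells with OCT4, whereas GATA6 drives the primitive endoderm. H3K4me1 marks primed and active enhancers, and H3K27ac marks active enhancers and promoters. In CUT&RUN an antibody guides a nuclease that cuts out the bound chromatin, so that a peak is a stretch rich in released fragments.

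Sequences are shown for the regions on which the results turn, as 200 bases of the plus strand of the RefSeq GRCm38 assembly (mm10) centred on the highest signal of the best ranked peak. The first 2 come from an element upstream of Otx2, at chr14:48700973-48701172 under SOX2 and chr14:48701560-48701759 under GATA6, both in an intron of the lincRNA Otx2os1. The next comes from an Otx2 intron at chr14:48662952-48663151, where the SOX2 and GATA6 maxima lie 1 bp apart. The last 2 are the GATA6 site in the Fgf5 window, intergenic at chr5:98293460-98293659, and the GATA6 site upstream of Pou3f1, in an intron of the antisense gene Gm2164 at chr4:124644986-124645185. Capitals mark matches on either strand to SOX hexamers (CATTGT and also CTTTGT), to hexamers of GATA factors (AGATAA and also TGATAA), to the octamer ATGCAAAT bound by POU factors and to the OTX hexamer GGATTA.
Otx2 upstream under SOX2: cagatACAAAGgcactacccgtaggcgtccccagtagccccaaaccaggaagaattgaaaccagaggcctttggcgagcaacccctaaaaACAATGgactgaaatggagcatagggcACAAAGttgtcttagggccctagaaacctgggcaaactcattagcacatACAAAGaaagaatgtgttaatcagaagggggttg
Otx2 upstream under GATA6: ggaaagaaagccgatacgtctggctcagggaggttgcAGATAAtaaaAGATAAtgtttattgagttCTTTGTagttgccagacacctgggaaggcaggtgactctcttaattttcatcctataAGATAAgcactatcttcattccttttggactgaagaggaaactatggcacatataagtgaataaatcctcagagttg
Otx2 intron: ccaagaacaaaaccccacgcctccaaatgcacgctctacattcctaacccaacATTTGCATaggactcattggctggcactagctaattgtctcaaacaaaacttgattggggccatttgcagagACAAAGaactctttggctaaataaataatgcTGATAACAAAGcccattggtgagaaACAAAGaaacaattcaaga
Fgf5 downstream under GATA6: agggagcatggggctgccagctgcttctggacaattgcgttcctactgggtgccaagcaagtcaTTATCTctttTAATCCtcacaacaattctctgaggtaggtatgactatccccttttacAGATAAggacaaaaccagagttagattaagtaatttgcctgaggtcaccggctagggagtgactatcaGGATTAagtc
Pou3f1 upstream under GATA6: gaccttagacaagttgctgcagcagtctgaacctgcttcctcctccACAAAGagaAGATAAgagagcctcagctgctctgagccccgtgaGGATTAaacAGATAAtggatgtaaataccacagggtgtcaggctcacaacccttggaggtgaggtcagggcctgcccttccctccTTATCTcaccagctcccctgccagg

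The Otx2 upstream window under SOX2 held 4 SOX hexamers, 1 CATTGT and 3 CTTTGT, the nearest 7 bp from the maximum. Under GATA6, 587 bp away, 3 AGATAA hexamers stood beside 1 CTTTGT. The Otx2 intron held an octamer, 3 CTTTGT and 1 TGATAA, and that TGATAA shares 1 base with a CTTTGT match. The Fgf5 window held 2 AGATAA and 2 GGATTA, and the Pou3f1 window 3 AGATAA, 1 CTTTGT and 1 GGATTA. In windows of the same length, at least 1 of the SOX hexamers was found in 63.9% of the 39917 merged SOX2 regions of the genome and at least 1 of the GATA hexamers in 72.3% of the 39910 merged GATA6 regions. In the GATA6 regions, CTTTGT was found in 27.4% and at least 1 SOX hexamer in 44.3%, and in the SOX2 regions at least 1 GATA hexamer in 20.1%. The octamer was found in 5.24% of the SOX2 regions, and GGATTA in 8.74% of the GATA6 regions. These are matches of letters and no more.

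For each library the strongest peak in a gene's window, by its highest signal, was ranked against those of all protein-coding genes. The resulting gene rank is the percent of gene windows whose strongest peak is lower, and is 0 where the window has no peak. A window with a peak cannot rank below the percent of windows without one, so a peak in a short list starts high. The rank of a peak among the peaks of its own library is also given, since signals of different libraries are not on a shared scale. Libraries differed widely in their number of peaks, from 1378 to 29623 for SOX2, 1391 to 32510 for GATA6, 13514 to 401853 for H3K27ac and 18627 to 130749 for H3K4me1. The fewest were in DP B for both factors and in SOX2+ A for H3K27ac. Read depth is unknown, and how far it contributes to these numbers was not tested. As a check of the labels, H3K27ac gene ranks of both nEnd libraries were above those of all 4 naive libraries (2iLIF and NACL) at 9 of 10 primitive endoderm genes (21.5% of all genes tested) and below them at 7 of 9 naive pluripotency genes (35.8%). Of 5 trophoblast genes, 2 were above and 1 below. The labels do not say whether libraries of a group come from separate cultures, so p-values measure the spread between libraries, which may be technical.

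**Figure D1:**
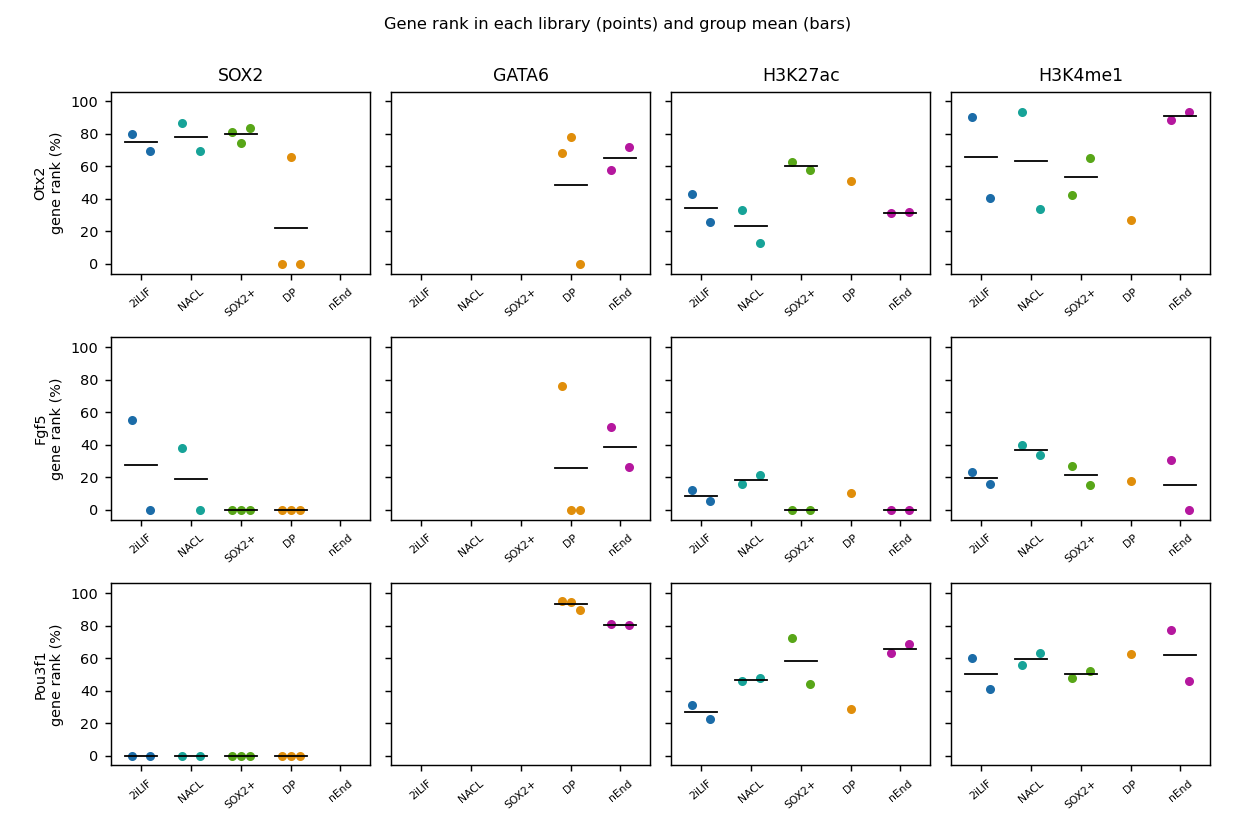
Gene rank (percent of protein-coding gene windows with a lower strongest peak) of Otx2, Fgf5 and Pou3f1 by antibody and population. Each point is a library and each bar the mean of a group of 2 or 3. SOX2 was not profiled in nEnd, nor GATA6 in 2iLIF, NACL or SOX2+. The Otx2 SOX2 ranks sit between 69.3 and 86.6 in the 7 pluripotent libraries and at 0, 65.8 and 0 in DP, whereas Pou3f1 is at 0 throughout for SOX2 and between 80.1 and 95.3 for GATA6.

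Of the 3 genes, Otx2 alone had a SOX2 peak in every 2iLIF, NACL and SOX2+ library, which held for 37.7% of all genes. The numbers of SOX2 peaks in its window were 4 and 2 in 2iLIF B9 and B12, 7 and 3 in NACL B9 and B12, and 8, 7 and 4 in SOX2+ A, A1 and B. In DP there was 1 peak in A1 and none in A or B. A SOX2 peak in at least 2 of the 3 DP libraries was found for 28.8% of all genes and for 0 of the 3 formative genes. Mean SOX2 gene ranks at Otx2 were 79.6 ± 4.58 (SD, n = 3) in SOX2+, 78.0 ± 12.2 (n = 2) in NACL, 74.7 ± 7.53 (n = 2) in 2iLIF and 21.9 ± 38.0 (n = 3) in DP. The first 3 differ from one another by less than the SD of 2iLIF or NACL. In these bulk libraries, fewer cells with a bound site and less binding per cell cannot be told apart.

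SOX2 ranks of Otx2 were lower in all 3 DP libraries (0, 65.8 and 0) than in all 7 pluripotent libraries (69.3 to 86.6). The means were 21.9 ± 38.0 (SD, n = 3) and 77.7 ± 6.79 (n = 7), a difference of -55.8 points with p = 0.0167 in a two-sided exact permutation test over libraries. That is the smallest p this design allows. Adjusted over the 19167 genes tested, the exact permutation p rose to 0.111, and no gene passed 0.05, although 3327 genes had an unadjusted p under 0.05. DP libraries were below all pluripotent libraries at 12.6% of genes, and the median difference over all genes was -20.5 points. Against the SOX2+ libraries alone (74.5 to 83.4), the difference was -57.7 points, with an exact permutation p = 0.1, the smallest possible with 3 against 3, and the separation was shared by 29.3% of genes. The peak of DP A1 stood just above the lowest rank a peak can have in that library, 64.4, and in DP B any peak would have ranked at 87.7 or more, above every pluripotent library. When each library was cut to its 1378 strongest peaks, as many as DP B holds, Otx2 had no SOX2 peak in any of the 10 libraries and both differences were 0. With DP B left out and 4859 peaks kept in each library, Otx2 had a peak in 7 of 7 pluripotent libraries and in 1 of 2 DP libraries, mean ranks 77.7 and 33.3, with an exact permutation p = 0.0556 that is the smallest possible.

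**Figure D2:**
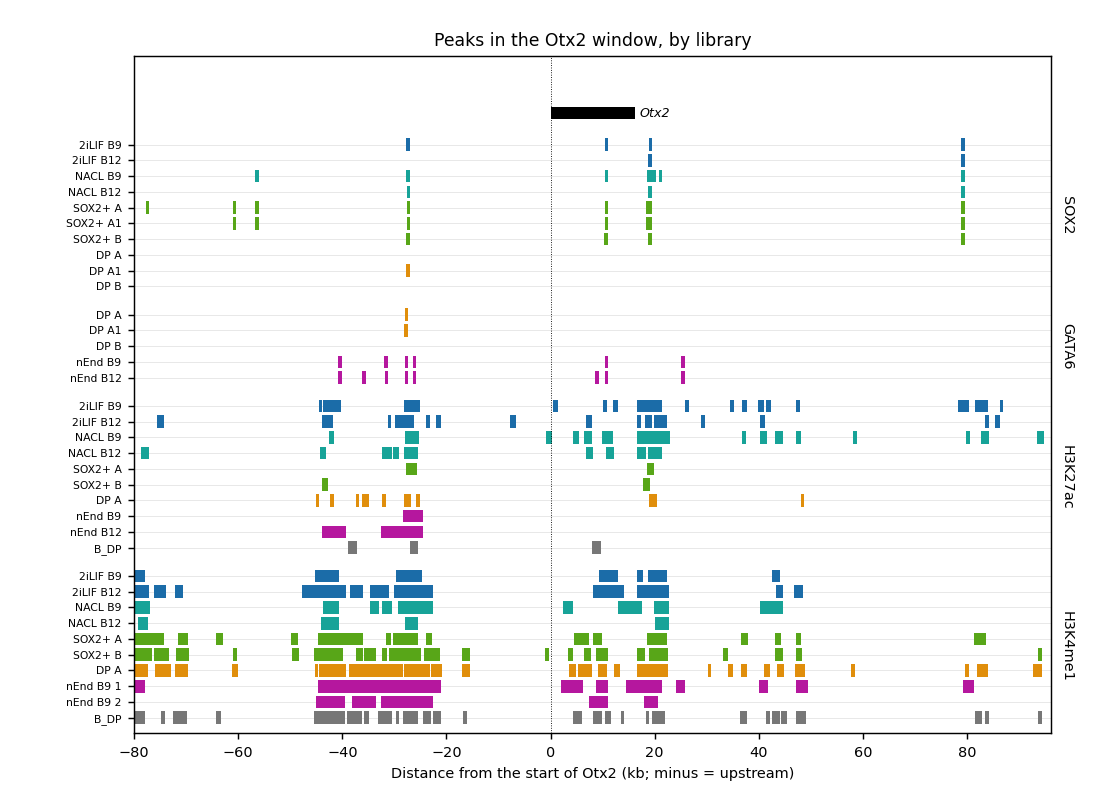
Peaks in the Otx2 window by library, with the distance from the annotated 5′ end of Otx2 in kb on the x axis and 1 row per library, grouped by antibody and coloured by population. Bars are peaks, the black bar is the gene, and short peaks are drawn at a minimum width. SOX2 peaks stack at 4 positions in the pluripotent libraries, while GATA6 peaks of nEnd fall at other positions except near 27 kb upstream and 10.8 kb downstream.

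SOX2 peaks in the Otx2 window merged into 9 regions, 6 of them with at least 2 libraries. Those with most libraries lay 19.1 kb downstream of the annotated start (chr14:48654328-48655305, intergenic and just beyond the 3′ end), 79.2 kb downstream (chr14:48594309-48594745, in an intron of the lincRNA Gm49120) and 27.3 kb upstream (chr14:48700801-48701499). The first 2 were present in all 7 pluripotent libraries and in 0 of 3 DP libraries, as were 36.5% of the 4904 SOX2 regions found in all 7. At the 19.1 kb region, the peak exceeded 69.0% and 44.9% of the library's own SOX2 peaks in 2iLIF B9 and B12, 94.3% and 63.2% in NACL B9 and B12, and 74.1%, 75.8% and 65.97% in SOX2+ A, A1 and B. It was thus among the stronger peaks in NACL B9 and of middle rank in 2iLIF B12. The 79.2 kb region ranked lower in each of these libraries but 2iLIF B9, where it ranked higher, at 79.995%. Its lowest place was 18.7%, in NACL B12. Its chromatin differed from that of the 19.1 kb region, with H3K27ac in 1 of 9 libraries against 7 of 9, and H3K4me1 in 1 of 9 against 7 of 9. None of the H3K27ac on the 19.1 kb region was from nEnd, where both H3K4me1 libraries had a peak on it.

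The region 27.3 kb upstream carried SOX2 in 6 of the 7 pluripotent libraries and in DP A1, the only SOX2 peak of DP in the Otx2 window. Its peak exceeded 85.8%, 84.5% and 52.0% of the library's SOX2 peaks in SOX2+ A, A1 and B, 66.4% and 73.4% in NACL B9 and B12, and 8.32% in 2iLIF B9. It was absent from 2iLIF B12 and near the bottom in DP A1, at 5.04%. The SOX2 maxima of the 7 libraries lay between -27308 and -27215 bp of the start. The GATA6 region next to it (chr14:48701119-48701855) held DP A, DP A1, nEnd B9 and nEnd B12, with maxima between -27840 and -27766 bp, and shared 381 bp with the SOX2 region. Of the 9601 SOX2 regions found in at least 5 pluripotent libraries, 5.46% overlapped a GATA6 region of at least 2 DP libraries. GATA6 exceeded 50.9% and 33.5% of the library's peaks in DP A and A1, and 73.4% and 89.0% in nEnd B9 and B12. Each factor thus had its own maximum in this element, 587 bp apart in the best ranked peaks.

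**Figure D3:**
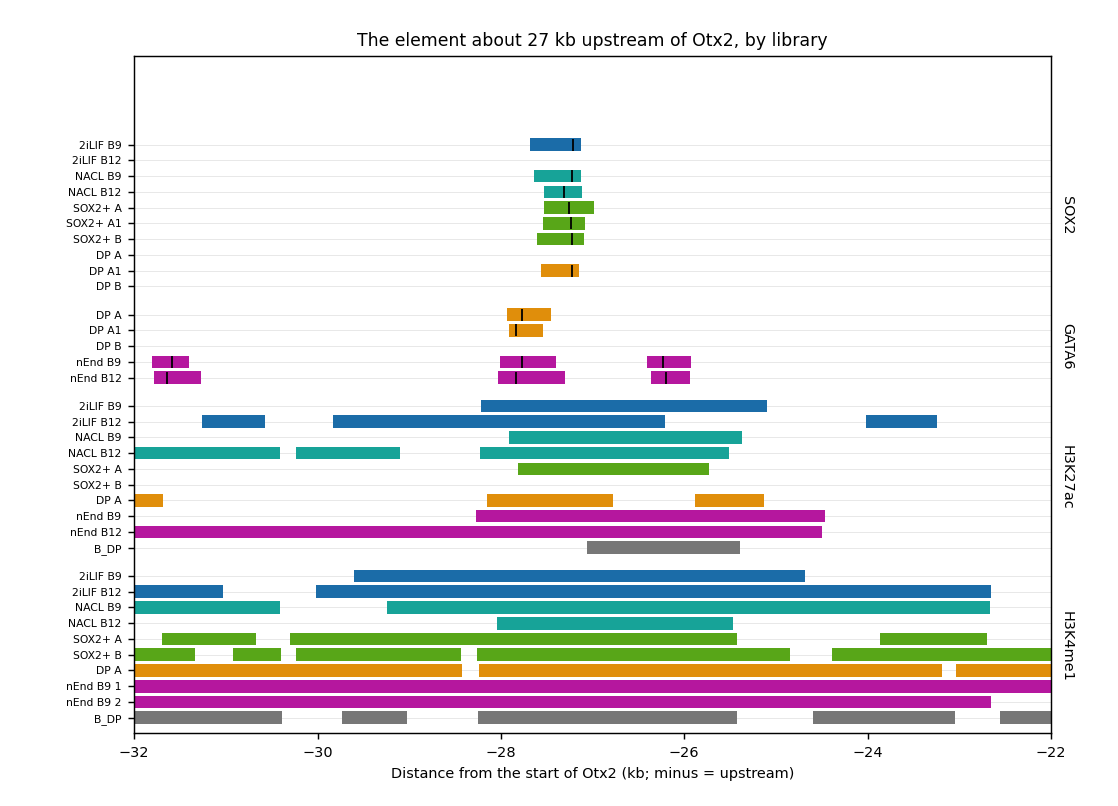
The element about 27 kb upstream of Otx2, with 1 row per library and the distance from the annotated start in kb on the x axis. Bars are peaks, and black ticks mark the highest signal of SOX2 and GATA6 peaks. SOX2 maxima lie between -27308 and -27215 bp, GATA6 maxima of DP and nEnd between -27840 and -27766 bp, and nEnd carries further GATA6 peaks near 26.2 and 31.6 kb upstream.

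H3K27ac covered this element in 8 of 9 libraries, including DP A and both nEnd libraries, and H3K4me1 covered it in 9 of 9. SOX2+ B was the library without H3K27ac there. In nEnd it was the strongest H3K27ac peak of the whole Otx2 window, exceeding 37.8% and 43.8% of the H3K27ac peaks of B9 and B12. H3K4me1 in nEnd was strong by comparison, at 97.5% and 96.5% of the library's own peaks. The maxima of these peaks lay at -31.681 kb in nEnd 1 and -26.736 kb in nEnd 2, the first away from the SOX2 and GATA6 maxima of the element. In the naive media, H3K27ac peaks on the element ranked between 78.2% and 90.8% and H3K4me1 peaks between 18.9% in NACL B12 and 98.0% in NACL B9.

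GATA6 regions in the Otx2 window numbered 8, of which 6 had at least 2 libraries, and all but the upstream element were of nEnd alone. A GATA6 peak in both nEnd libraries was found for 3 of 3 formative genes (71.5% of all genes), and in at least 2 of 3 DP libraries for Otx2 and Pou3f1 (28.4%). In the Otx2 intron, 10.8 kb from the annotated start, GATA6 peaks of nEnd B9 and B12 exceeded 26.7% and 69.0% of their libraries' peaks. SOX2 occupied the same stretch (chr14:48662842-48663368) in 2iLIF B9, NACL B9 and all 3 SOX2+ libraries, exceeding from 48.3% to 81.0% of the library's peaks, and in no DP library. The annotated start of 1 Otx2 transcript, at chr14:48662872 and 10947 bp downstream of the gene's 5′ end, lies inside this stretch. Among the 9601 SOX2 regions with at least 5 pluripotent libraries, 12.4% overlapped a GATA6 region of both nEnd libraries. GATA6 gene ranks at Otx2 were 68.1, 78.1 and 0 in DP A, A1 and B and 57.9 and 72.0 in nEnd B9 and B12. The groups overlapped, and their difference of -16.2 points had an exact permutation p = 1, where 0.2 is the smallest possible. By place among the library's own peaks it was -53.0 points and the groups did not overlap (exact permutation p = 0.2). It was 0 with 1391 peaks a library, 8.16 without DP B, -25.9 without DP A, -30.9 without DP A1, -9.17 without nEnd B12, and 38.0 without DP B at 3821 peaks a library.

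Chromatin at the Otx2 promoter depended on which start was used. The gene's annotated 5′ end belongs to 1 of its 11 transcripts, and 6 others start between 6.18 and 6.31 kb further downstream. The remaining starts lie between 8298 and 11887 bp downstream, 1 of them inside the intron stretch with SOX2 and GATA6. Within 1 kb of the 5′ end, H3K27ac was found in 2iLIF B9 and NACL B9, and H3K4me1 in SOX2+ B alone. Within 1 kb of the start of any annotated transcript, an alternative chosen after seeing the data, H3K27ac was found in both 2iLIF and both NACL libraries and in none of SOX2+, DP and nEnd. H3K4me1 was then found in 7 of 9 libraries, all but the 2 of NACL.

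Putative enhancers were taken as H3K27ac regions of both libraries of a population that overlap an H3K4me1 region of both. At Otx2 there were 3 in 2iLIF, 2 in NACL, 1 in SOX2+ and 1 in nEnd. The upstream element was an enhancer by this measure in 2iLIF, NACL and nEnd, and the region near 19.1 kb downstream in 2iLIF, NACL and SOX2+. In NACL that enhancer is an H3K27ac region of 6330 bp, whose H3K4me1 (maxima 20.567 and 20.857 kb downstream) lay beside the SOX2 region and not on it. H3K27ac gene ranks at Otx2 were 43.1 and 25.8 in 2iLIF B9 and B12, 33.3 and 12.8 in NACL B9 and B12, 62.5 and 57.8 in SOX2+ A and B, 51.2 in DP A, and 31.2 and 31.8 in nEnd B9 and B12. SOX2+ lay above all 4 naive libraries, by 31.4 points, with an exact permutation p = 0.133, the smallest possible with 2 against 4, and 11% of genes separated in that direction. Measured by the strongest peak's place among its own library's peaks, the same difference turned to -28.2 points, with both SOX2+ libraries below all 4 naive libraries (exact permutation p = 0.133). In either SOX2+ library a window with any H3K27ac peak ranks at 40.8 or more, already above 3 of the 4 naive libraries at Otx2. The SOX2+ libraries held 13514 and 14722 H3K27ac peaks and the naive libraries 210904 to 401853, and the part of that gap in either value was not tested. Between nEnd and the naive media the ranks overlapped, with a difference of 2.77 points (exact permutation p = 0.933) that was 7.03 by total signal and 8.26 with a 40 kb flank, and turned to -50.4 points on the other measure, with both nEnd libraries below the naive media (exact permutation p = 0.133), and to -2.54 points without NACL B12. It was 7.54 without 2iLIF B9, 4.28 without NACL B9 and 1.80 without 2iLIF B12. As unpaired groups, the 2iLIF and NACL ranks overlapped too, with a difference of 11.4 points (exact permutation p = 0.667) that turned to -3.93 by total signal and -0.526 with a 40 kb flank. It was 1.17 without NACL B12, 2.79 without 2iLIF B9, 20.02 without 2iLIF B12 and 21.6 without NACL B9. Within each clone 2iLIF was the higher, at 43.1 against 33.3 in B9 and 25.8 against 12.8 in B12.

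H3K4me1 gene ranks at Otx2 were 88.7 and 93.3 in nEnd, against 90.3 and 40.8 in 2iLIF B9 and B12, 93.3 and 33.5 in NACL B9 and B12, 42.1 and 65.0 in SOX2+ A and B, and 27.1 in DP A. The naive ranks thus split by clone, high in B9 and low in B12, and both nEnd libraries are of clone B9. The difference of nEnd from the naive media was 26.5 points (exact permutation p = 0.667, the groups overlapping), and 16.2 points without NACL B12. By total signal it was 28.2 points and the groups did not overlap (exact permutation p = 0.133, the smallest possible).

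Fgf5, which codes for a ligand, had little SOX2 in its window. The SOX2 libraries with a peak were 2iLIF B9 with 1 and NACL B9 with 2, and the other 8 libraries had none. Gene ranks were 55.3 in 2iLIF B9 and 38.1 in NACL B9. The region 88.4 kb downstream of the start, in an intron of Cfap299, was shared by both, at 41.0% and 53.2% of the library's SOX2 peaks, and lies 13328 bp from the start of Cfap299, which is nearer than Fgf5. The other was of NACL B9 alone, in an Fgf5 intron 1.84 kb from the start, at 30.1%. Both libraries with SOX2 peaks are of clone B9, and neither B12 library in the same media had one. The B9 lists were also the longer, with 13177 against 8203 peaks in 2iLIF and 29623 against 17111 in NACL. Clone and list length cannot be told apart here. The rank difference of DP from the pluripotent libraries was -13.3 points (exact permutation p = 0.933), -6.34 without 2iLIF B9 and -6.15 with a 40 kb flank, and no comparison with SOX2+ could be made since neither had a peak. When libraries were cut to 4859 peaks, the Fgf5 window had no SOX2 peak in any.

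GATA6 bound 1 region of the Fgf5 window, 39.4 kb downstream of the start (chr5:98293360-98293787), intergenic and nearer to the start of Cfap299. The peak was found in DP A, nEnd B9 and nEnd B12, and exceeded 67.4%, 64.3% and 21.95% of the peaks of those libraries. It was absent from DP A1 and DP B. No H3K27ac library had a peak on this region, and H3K4me1 was found on it in DP A and in 1 of the 2 nEnd libraries. GATA6 gene ranks at Fgf5 were 76.3, 0 and 0 in DP and 50.8 and 26.1 in nEnd, and the groups overlapped (difference -13.0 points, exact permutation p = 0.6). The difference was -38.4 without DP A, -0.271 without DP A1 or without DP B, -0.661 without nEnd B9 and -25.3 without nEnd B12. With 1391 peaks a library it was 0, with a 40 kb flank -23.4, by total signal -8.52, by place among the library's own peaks -20.7, and with DP B left out at 3821 peaks a library it turned to 38.2.

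Both marks had a peak within 1 kb of the Fgf5 start site in both NACL libraries and in neither 2iLIF library. A pattern of both NACL libraries and neither 2iLIF library was found for H3K27ac at 2.49% of genes, for H3K4me1 at 0.337% and for both marks at 3 of 21938 genes (0.0137%), shares that were counted after the Fgf5 values were seen. H3K27ac lay within 1 kb of it in both NACL libraries (52.1% of all genes) and in none of the other 7. Such a peak in both libraries of a population was found for 50% of genes in 2iLIF, 36.3% in nEnd and 14.2% in SOX2+. Its lack in SOX2+ is therefore shared by most genes. The 2 peaks were unequal, exceeding 0.436% of the library's peaks in B9 and 69.8% in B12. H3K4me1 lay within 1 kb in both NACL libraries (4.56% of all genes), both SOX2+ libraries (31.6%) and DP A, and in none of 2iLIF and nEnd. H3K4me1 within 1 kb was rare in general in those populations, at 7.17% of genes in both 2iLIF libraries and 6.33% in both nEnd libraries. The H3K4me1 peaks exceeded 54.7% and 18.9% of the peaks in NACL B9 and B12, 20.03% and 42.5% in SOX2+ A and B, and 69.4% in DP A. Within 1 kb, these lists thus held peaks of both marks in NACL, of H3K4me1 alone in SOX2+ and DP A, and of neither mark in 2iLIF and nEnd. The H3K4me1 peaks of the 2 NACL libraries did not overlap. In NACL B9 the maximum lay 1.84 kb upstream, in a region shared with 2iLIF B12, SOX2+ B and DP A. The 2iLIF B12 maximum lay 2.225 kb upstream, and the nearer edge of that peak was beyond 1 kb but within 2 kb of the start. In NACL B12 the maximum lay 1.212 kb downstream, in a separate region with SOX2+ A, SOX2+ B and DP A. The H3K4me1 contrast with 2iLIF thus depends on the 1 kb limit.

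**Figure D4:**
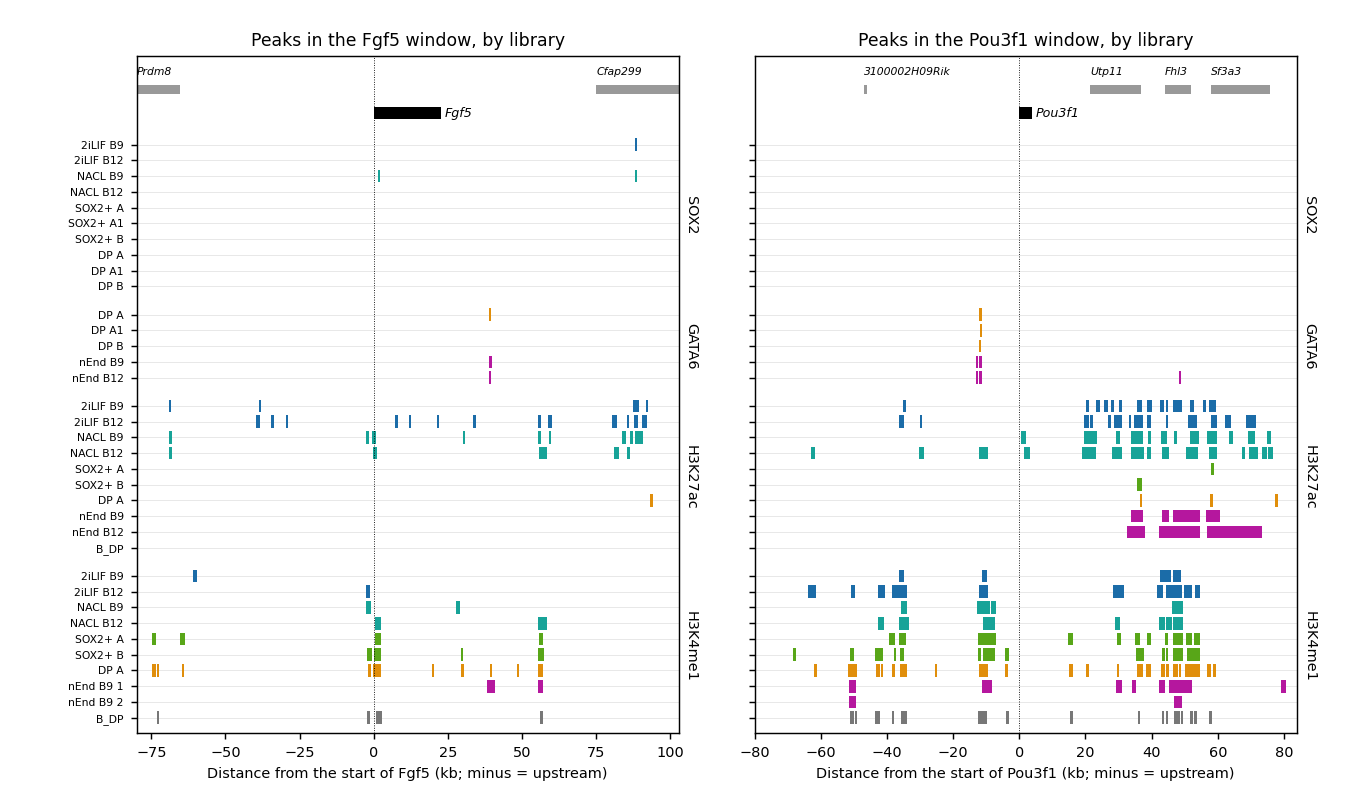
Peaks in the windows of Fgf5 (left) and Pou3f1 (right) by library, with the distance from the annotated start in kb on the x axis and 1 row per library, grouped by antibody. Bars are peaks coloured by population, black bars are the named genes and grey bars other protein-coding genes, and short peaks are drawn at a minimum width. GATA6 aligns 11.7 kb upstream of Pou3f1 in 5 of 5 libraries, and H3K27ac at the Fgf5 start is present in the 2 NACL libraries.

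Over the whole Fgf5 window, H3K27ac gene ranks were 11.9 and 5.50 in 2iLIF B9 and B12, 15.8 and 21.3 in NACL B9 and B12, 10.1 in DP A, and 0 in both SOX2+ and both nEnd libraries. NACL lay above 2iLIF in both libraries, a separation found in that direction for 22.5% of genes. The difference of 2iLIF from NACL was -9.84 points, with an exact permutation p = 0.333, the smallest possible with 2 against 2. By total signal it was -3.66 points and the media overlapped (exact permutation p = 1), with a 40 kb flank they overlapped as well (p = 0.667 in the exact test), and by place among the library's own peaks it was -17.2 points. Paired by clone (the replicate block), it was the same -9.84 points with an exact sign-flip p = 0.5, the smallest possible with 2 pairs. No H3K27ac peak in either nEnd library was found for 22.5% of genes and none in either SOX2+ library for 34.8%, and Fgf5 was the only formative gene of the 3 in either class. The differences of nEnd and of SOX2+ from the naive media were both -13.6 points, each with an exact permutation p = 0.133, the smallest possible, and every naive library was above every nEnd library for 35.8% of genes and above every SOX2+ library for 39.1%. With equal peak numbers, 20072 a library for nEnd and 13514 for SOX2+, both differences were 0, and by place among the library's own peaks both were -78.3 points. No enhancer by the measure above was found in the window in any population. H3K4me1 gene ranks at Fgf5 were 22.9 and 15.8 in 2iLIF, 39.7 and 33.5 in NACL, 26.8 and 15.5 in SOX2+, 17.7 in DP A and 30.5 and 0 in nEnd, and nEnd overlapped the naive media (difference -12.8 points, exact permutation p = 0.4). It turned to 5.41 with equal peak numbers, 3.38 by place among the library's own peaks and 2.47 without nEnd 2, and was -28.0 without nEnd 1.

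A distal region 56.7 kb downstream of the Fgf5 start carried H3K27ac in NACL B9, NACL B12 and 2iLIF B12, at 6.71%, 89.4% and 65.1% of the library's peaks. H3K4me1 lay on it in NACL B12, both SOX2+ libraries, DP A and 1 nEnd library. It is intergenic, and the start of Cfap299 is nearer to it than that of Fgf5.

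Pou3f1, a transcription factor gene with a short body, had no SOX2 peak in its window in any of the 10 SOX2 libraries, as had 12.6% of genes. GATA6, in contrast, was found in all 5 GATA6 libraries, as for 10.4% of genes. Both conditions together held for 28 of 21938 genes (0.128%), a class described here because Pou3f1 is in it. Counted by region, 62.8% of the 835 GATA6 regions found in all 5 libraries overlapped a SOX2 peak, and the others, like the Pou3f1 site, did not. The GATA6 region lay 11.7 kb upstream of the start (chr4:124644877-124645286), with maxima between -11748 and -11701 bp in the 5 libraries. Its peak ranked 410 of 8316 in DP A, 477 of 3821 in DP A1, 1009 of 1391 in DP B, 2021 of 24223 in nEnd B9 and 2210 of 32510 in nEnd B12. It was therefore among the stronger peaks in 4 libraries and in the weaker part of DP B. Of 21790 GATA6 regions with at least 2 libraries, 3.83% were found in all 5. A second GATA6 region 12.8 kb upstream was of nEnd alone, and ranked low in both (1.36% and 34.4%).

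GATA6 gene ranks at Pou3f1 were 95.3, 94.7 and 89.5 in DP A, A1 and B, and 81.1 and 80.1 in nEnd B9 and B12. All DP libraries lay above both nEnd libraries, by 12.5 points, with an exact permutation p = 0.2, the smallest possible with 3 against 2, and 8.12% of genes separated in that direction. Over all genes the median difference was -30.2 points. GATA6 peaks were found in 12.0% to 49.9% of gene windows in DP and in 74.1% to 77.6% in nEnd. In DP B any window with a peak ranks at 87.99 or more, so that its place above nEnd followed from having a peak at all. The lowest possible rank was 71.3 in DP A1 and 50.1 in DP A, below both nEnd values. By the place of the peak among its own library's peaks, the difference turned to -25.5 points and the groups overlapped (exact permutation p = 0.6), DP B being at 19.3% there. Cut to 1391 peaks a library, nEnd had no peak in the window and the difference was 93.2 points. With DP B left out it was 14.4 points, and with a 40 kb flank 8.14 points. On the GATA6 site, H3K27ac was found in NACL B12 alone, at 78.2% of its peaks, and in neither nEnd library. H3K4me1 lay on it in 2iLIF B12, NACL B9, both SOX2+ libraries and DP A, and in neither nEnd library. Beside the site, 2iLIF B9, NACL B12 and nEnd 1 had H3K4me1 peaks with maxima 10743, 10516 and 10658 bp upstream of the start. All of these merged into 1 H3K4me1 region of 8 libraries. In DP A the H3K4me1 peak on the site exceeded 94.3% of the library's peaks, with its maximum 11.7 kb upstream, and in SOX2+ A and B the peaks on the site exceeded 67.7% and 28.0%.

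**Figure D5:**
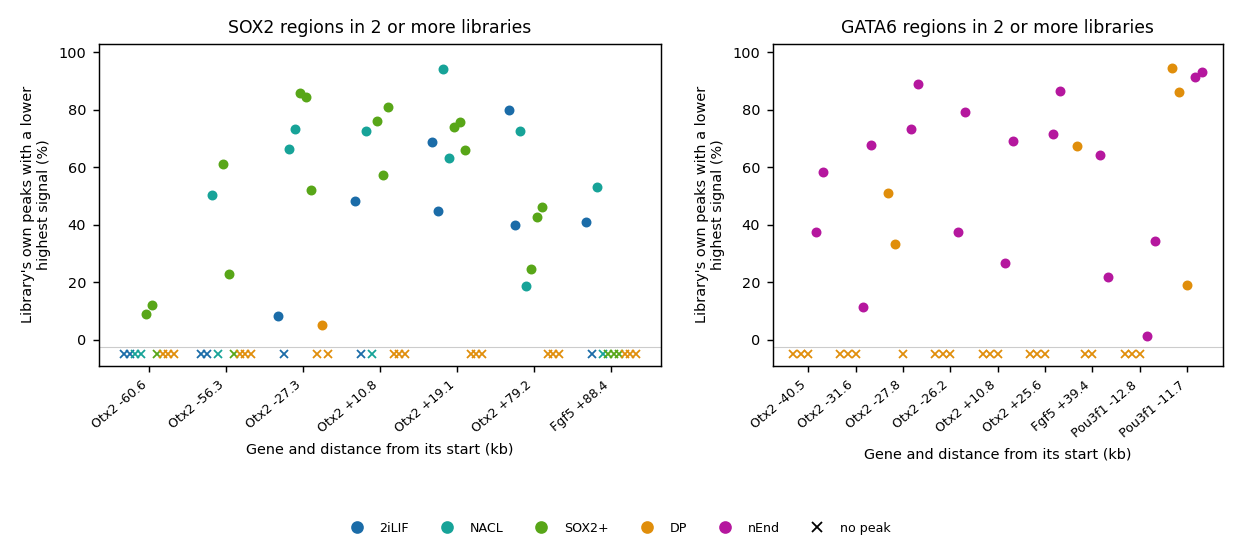
Percent of the library's own peaks with a lower highest signal, for SOX2 (left) and GATA6 (right) regions with at least 2 libraries in the 3 windows. Each point is a library coloured by population and each cross a library without a peak. The GATA6 region 11.7 kb upstream of Pou3f1 is the only one of these with a point for all 3 DP libraries, and no SOX2 region has more than 1 DP point.

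At the Pou3f1 start site, H3K27ac was found within 1 kb in NACL B9 alone, and within 2 kb also in NACL B12. No H3K4me1 library had a peak within 1 kb. The strongest H3K27ac peak of the window lay near the start of Sf3a3 in both 2iLIF and both NACL libraries, SOX2+ A and DP A, near the start of Utp11 in SOX2+ B, and between Fhl3 and Sf3a3 in both nEnd libraries. Gene ranks for H3K27ac in this window are therefore values of the neighbourhood of Pou3f1 and not of its promoter. They were 31.3 and 22.3 in 2iLIF, 45.8 and 47.7 in NACL, 72.1 and 44.2 in SOX2+, 28.7 in DP A, and 63.0 and 68.4 in nEnd. Both 2iLIF libraries lay below both NACL libraries, with a difference of -19.9 points (exact permutation p = 0.333, the smallest possible), a separation found for 22.5% of genes and also at Fgf5. At Pou3f1 it was -4.13 by total signal, -3.26 by place among the library's own peaks and -7.47 with a 40 kb flank, where the media overlapped (exact permutation p = 0.667). With clone as the replicate block, the Pou3f1 difference was -19.9 points with an exact sign-flip p = 0.5, the smallest possible with 2 pairs. Both nEnd libraries lay above the naive media at Pou3f1, by 28.9 points (exact permutation p = 0.133, the smallest possible, and 21.5% of genes), which turned to -9.94 points by place among the library's own peaks, with both nEnd libraries below the naive media (exact permutation p = 0.133). At Pou3f1 SOX2+ overlapped the naive media, with a difference of 21.4 points (exact permutation p = 0.4) that was 7.46 without SOX2+ A and 35.4 without SOX2+ B, and turned to -4.59 with a 40 kb flank and -46.3 by place among the library's own peaks. The groups did not overlap by total signal, where it was 20.6 points, nor by place among the library's own peaks, where SOX2+ was the lower (exact permutation p = 0.133 for each).

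Enhancers in the Pou3f1 window numbered 2 in 2iLIF, 1 in NACL, 0 in SOX2+ and 1 in nEnd, and none of them was nearer to the start of Pou3f1 than to that of another protein-coding gene. H3K4me1 gene ranks were 60.3 and 40.8 in 2iLIF, 55.5 and 63.3 in NACL, 47.7 and 52.3 in SOX2+, 62.8 in DP A and 77.6 and 45.9 in nEnd, with a difference of nEnd from the naive media of 6.78 points (exact permutation p = 0.667, the groups overlapping). It turned to -34.1 with a 40 kb flank, where nEnd lay below all 4 naive libraries (exact permutation p = 0.133, the smallest possible), -10.8 by place among the library's own peaks, -4.95 by total signal and -9.04 without nEnd 1, and it was 22.6 without nEnd 2 and 2.04 without 2iLIF B12.

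The 14 other formative genes, a list that includes Zic2, Dnmt3b, Lef1 and Lin28b, gave a frame for these values. SOX2 peaks were found in all 7 pluripotent libraries for 10 of the 14 and in at least 2 DP libraries for 10, against 1 and 0 of the 3 genes described here. None of the 14 lacked SOX2 in all 10 libraries. GATA6 was found in both nEnd libraries for 10 of the 14 (71.5% of all genes) and in at least 2 DP libraries for 4 (28.4%), shares close to those of all genes. For SOX2 the shares over all genes were 37.7% and 28.8%. In the SOX2 comparison of DP with the pluripotent libraries, DP lay below every pluripotent library at 2 of the 14 (Lef1 and Lin28b), beside 12.6% of all genes. The median difference over the 14 was -19.5 points, beside -20.5 over all genes. The extremes were Lin28b, a regulator of let-7 microRNAs, at -58.0 points and Sall2, a zinc-finger factor, at 16.02 points, and Otx2 at -55.8 points stood near the lower end. Against SOX2+ alone, DP lay below every SOX2+ library at 7 of the 13 tested and above at 0, beside 29.3% of all genes below. The median difference there was -29.5 points, beside -24.7 over all genes.

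Genes on other chromosomes whose gene ranks varied most like those of each gene over the 33 libraries, after the mean of each antibody was subtracted, were listed as a description. For Otx2 they were Pds5a (Pearson r = 0.83), Dusp21 and Kdm6a (both r = 0.83, both on X and equal to each other). For Fgf5 they were Wnt9b (r = 0.81), Ifng (r = 0.79) and Coq9 (r = 0.79), and for Pou3f1 Slc26a3 (r = 0.70), Pck1 (r = 0.70) and Nthl1 (r = 0.61). The libraries share antibodies, clones and peak numbers, which enter every one of these correlations.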

How the data were processed

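Of 53 samples, 35 with peak lists were used and 18 IgG samples were not used here. The submitters' processing notes list cutadapt 1.18, Bowtie2 2.3.4.1, SAMtools 1.9, Picard 2.9.1, bedtools 2.27.1, deepTools 3.2.0 and SEACR without a version. The authors called peaks in each library against IgG of its condition, on mm10. The deposited columns give the total and the highest signal of each peak, as whole numbers on the library's own scale with no stated normalization. By their names the SOX2 and GATA6 lists are stringent and the histone lists relaxed, whereas the study's methods state the reverse.

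Peaks on the autosomes, X and Y were assigned to windows of GENCODE M21 genes with Python 3.11.15 and pandas 2.3.3. Mean gene ranks were compared by two-sided exact permutation tests over libraries, with Benjamini-Hochberg adjustment over all genes with a peak, and the code was checked on simulated peak lists. Peaks of an antibody that shared 1 bp were merged, and at most 6 SOX2 or GATA6 regions a gene, those with the most libraries, were described singly. Other genes are named where nearer to a described region, at the extremes of a list, or among the 3 most alike. The genes, lists and tests were chosen with earlier results of these data known. Clones B9 and B12, named in the labels, pair the 2iLIF and NACL libraries, whose H3K27ac ranks deviated together by clone (r = 0.191 over 21382 genes). The lists hold no read counts, so no counting error is given. Alternatives were total signal, a 40 kb flank, equal peak numbers, the place among a library's own peaks, each library left out, the replicate block, the stronger 50% of peaks, a 2 kb promoter and the start of any transcript.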

Additional observations from a re-analysis of the deposited data

Results flagged for a closer look

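The pair of B_DP histone libraries, whose labels call them DP in one field and SOX2+ in another, entered no comparison. Their H3K4me1 list held 27 peaks in the Otx2 window, 4 in the Fgf5 window and 17 in the Pou3f1 window, and these are singled out because they are a signal in data outside every comparison. On the Otx2 upstream element the B_DP lists had an H3K27ac peak at 24.4% and an H3K4me1 peak at 83.7% of their own peaks. At the Fgf5 start site they had H3K4me1 (22.9%) and no H3K27ac. At the GATA6 site upstream of Pou3f1 they had H3K4me1 (53.5%) and no H3K27ac. No H3K27ac peak of B_DP lay in the windows of Fgf5 and Pou3f1, in a list of 19185 peaks. Among the groups of 4 or 7 libraries checked, 8 in all, no library stood far from the others by Dixon's criterion, which by chance marks about 1 group in 20.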

How the results depend on the processing

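Under the alternatives, 182 values kept their direction and side of the 0.05 threshold (counts: stayed close), 19 reversed, 5 lost the threshold, and 13 were counts that moved or differences that went to 0. In every comparison but SOX2 of DP against the pluripotent libraries, the smallest possible p of the exact permutation test is 0.1 or more. The side of the threshold was thus fixed there, and only direction or size could change. Equal peak numbers gave 0 for SOX2 at Otx2 against SOX2+ and at Fgf5 against the pluripotent libraries (also without DP B), for GATA6 at Otx2 and Fgf5, and for H3K27ac of nEnd and of SOX2+ at Fgf5. The difference in SOX2 rank at Otx2 between DP and the pluripotent libraries was 0 with 1378 peaks a library and -44.4 with 4859 peaks and DP B left out, and it ranged from -77.7 (without DP A1) to -44.8 (without DP A or without DP B), each of these 3 with an exact permutation p = 0.0556, the smallest left by 2 against 7 libraries. The setting with DP B left out at equal peak numbers and the start of any transcript were chosen after seeing the data. For GATA6 in DP against nEnd, 3821 peaks a library without DP B gave 38.0 at Otx2 and 38.2 at Fgf5, and leaving out each library gave -30.9 to 8.16 at Otx2, positive without DP B. By place among the library's own peaks, GATA6 at Pou3f1 was -25.5, H3K27ac of nEnd against the naive media was -50.4 at Otx2 and -9.94 at Pou3f1, H3K4me1 of nEnd was 3.38 at Fgf5 and -10.8 at Pou3f1, and H3K27ac of SOX2+ was -28.2 at Otx2 and -46.3 at Pou3f1. Total signal gave -4.95 for H3K4me1 of nEnd at Pou3f1 and -3.93 for H3K27ac of 2iLIF against NACL at Otx2. A 40 kb flank gave -34.1 and -0.526 for the same, and -4.59 for H3K27ac of SOX2+ at Pou3f1. Equal peak numbers gave 5.41 for H3K4me1 of nEnd at Fgf5. Leaving out each library gave -2.54 (without NACL B12) to 7.54 for H3K27ac of nEnd at Otx2, and for H3K4me1 of nEnd -28.0 to 2.47 (without nEnd 2) at Fgf5 and -9.04 (without nEnd 1) to 22.6 at Pou3f1. The causes of these changes were not tested.

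Among the stronger 50% of each library's peaks, regions with at least 2 libraries numbered 2 for GATA6 at Otx2, 0 for SOX2 at Fgf5 and 1 for GATA6 at Pou3f1. The start of any transcript gave H3K27ac in 4 libraries and H3K4me1 in 7 at Otx2, and 2 kb gave H3K27ac in 2 at Pou3f1. Pairing DP and SOX2+ by the letters A, A1 and B as a replicate block left -57.7 for SOX2 at Otx2 with an exact sign-flip p = 0.25, the smallest possible, but same-lettered libraries did not deviate together over 17269 genes (r = 0.0128, -0.0436 and -0.102), so the letters may mark no pairing. The replicate block by clone gave 11.4 points for H3K27ac of 2iLIF against NACL at Otx2, with an exact sign-flip p = 0.5. That is the smallest possible with 2 pairs, so this block could change no call. Peak numbers differ widely between libraries of an antibody and read depth is unknown, so a missing peak is not evidence that a factor or mark was absent.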
